A study of Mus musculus with 6 samples.

Results

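The transcripts described here encode the proteins of the mitochondrial ribosome, taken as every gene whose symbol starts with Mrpl (large subunit) or Mrps (small subunit) followed by a number. The rule found 76 genes among the 18194 genes named on the arrays, 47 Mrpl and 29 Mrps genes. Where a gene had several probe sets, the one with the highest mean log2 signal over the 6 arrays stood for it. RefSeq lists 78 such protein-coding genes, and the remaining 2, Mrpl30 and Mrpl53, had only probe sets that carry several symbols and were not analysed here. All 76 genes passed the filter on low signal, with a lowest signal of 339 on any array against a floor of 63.2.

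All mice were males aged 2 months, housed at room temperature, fed chow and deprived of food for 6 hours before their fat was taken. The groups were wild type (WT) epididymal fat, subcutaneous fat and brown fat, and the same depots of mice with a whole-body knockout of Kdm4b (KO), a histone demethylase. Each depot and genotype was measured on 1 Affymetrix array of total RNA, and the labels leave out the strain, the number of mice behind a sample and whether 1 animal gave several depots. Pairs of signals are given with WT first and KO second. The design text frames the study as a search for the mechanism of obesity in mice that lack Kdm4b.

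Mitochondria translate a small set of respiratory chain subunits from their own DNA, on a ribosome whose proteins are all encoded in the nucleus, made in the cytosol and imported. The large subunit forms the peptide bond and the small subunit reads the messenger RNA, and both hold relatives of bacterial ribosomal proteins beside proteins found only in mitochondria. Brown adipocytes are packed with mitochondria that burn fuel for heat, whereas white adipocytes store fat and hold few.

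Promoters of mitochondrial ribosomal protein genes are known for sites of NRF1, of ETS-family factors such as GABP, and of YY1. The sequences were searched on both strands for the NRF1 motif (GCGC and TGCGC with any 1 base between them), CCGGAAG (ETS) and AAGATGGC (YY1) in RefSeq windows of 250 bases before to 50 bases after the annotated start (GRCm38.p6), which covered 67 of the 76 genes. The 150 bases before the start are printed for those members with the largest rises in brown fat that hold a match there, and for Mrps6, the gene with the difference nearest 0. They run 5′ to 3′ along the gene's strand, and capitals mark the match.
Mrpl34: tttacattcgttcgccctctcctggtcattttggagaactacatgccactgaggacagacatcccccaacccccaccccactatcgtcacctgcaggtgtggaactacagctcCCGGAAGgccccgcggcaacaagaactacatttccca
Mrpl39: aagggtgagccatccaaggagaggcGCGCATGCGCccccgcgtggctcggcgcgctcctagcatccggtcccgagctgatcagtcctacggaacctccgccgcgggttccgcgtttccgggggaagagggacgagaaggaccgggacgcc
Mrpl12: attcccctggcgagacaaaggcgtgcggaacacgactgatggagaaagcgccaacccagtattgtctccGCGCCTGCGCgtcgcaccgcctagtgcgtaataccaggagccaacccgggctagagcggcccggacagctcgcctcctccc
Mrps16: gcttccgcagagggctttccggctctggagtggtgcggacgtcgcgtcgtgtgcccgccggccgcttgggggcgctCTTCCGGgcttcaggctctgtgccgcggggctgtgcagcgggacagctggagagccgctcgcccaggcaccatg
Mrps27: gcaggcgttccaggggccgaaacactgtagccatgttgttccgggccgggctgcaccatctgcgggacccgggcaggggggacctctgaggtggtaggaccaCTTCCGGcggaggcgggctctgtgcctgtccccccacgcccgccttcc
Mrps6: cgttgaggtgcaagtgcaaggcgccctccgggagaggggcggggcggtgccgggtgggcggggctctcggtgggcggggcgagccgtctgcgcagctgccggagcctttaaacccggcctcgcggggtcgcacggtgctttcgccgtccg

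The Mrpl34 stretch lies at chr8:71464776-71464925 on the plus strand, with the ETS match 37 to 31 bases before the start. That of Mrpl39 lies at chr16:84735245-84735394 on the minus strand, with the NRF1 match at 125 to 116 bases. The Mrpl12 stretch at chr11:120484487-120484636 (plus strand) holds its NRF1 match at 81 to 72 bases. Both small-subunit examples with a match carry the ETS motif on the reverse strand. In Mrps16, at chr14:20393491-20393640 (minus strand), it lies 74 to 68 bases before the start, and in Mrps27, at chr13:99344636-99344785 (plus strand), 48 to 42 bases. The Mrps6 stretch, at chr16:92058186-92058335 on the plus strand, holds none of the 3 motifs.

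The array labels were first set against marker genes. Brown adipocyte markers, among them Ucp1, summed to a signal of 177826 and 156652 on the brown arrays and to 13442 to 20136 on the white ones. All 6 were above the floor on every array. Adipocyte markers summed to 92664 to 133120. Skeletal muscle markers summed to 64258 and 77322 on the subcutaneous arrays and differed between the brown arrays, with 21902 in WT and 1159 in KO, where 7 of 12 were above the floor. Macrophage markers summed to 4842 and 4051 on the brown arrays and to 17992 to 25096 on the white ones. Lymphoid markers were highest in subcutaneous fat (29193 and 30850, against 846 to 16368 elsewhere) and mesothelial markers in epididymal fat (8211 and 7538, against 240 to 442). Kdm4b itself had a lower signal in KO than in WT in each depot, 188 against 227 in epididymal, 157 against 272 in subcutaneous and 95.2 against 135 in brown fat. Where its probes lie relative to the deletion is unknown here.

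Most mitochondrial ribosome genes were higher in brown fat than in white fat. Of the 76 genes, 72 rose in brown fat relative to the averaged white depots and 0 fell (limma over all 6 arrays with depot and genotype as terms, Benjamini-Hochberg adjusted p under 0.05 over 13233 genes). Over all genes tested, 21.6% were called higher and 31.1% lower. Unadjusted p-values under 0.05 were found for 74 members in the higher and 0 in the lower direction, against 24.6% and 34.5% of all genes. The members' median difference was 1.11 on the log2 scale, a 2.15-fold higher signal, while the median of all genes tested was -0.11. Of the members, 43 were at least 2-fold higher (56.6%, against 9.09% of all genes), and 48 lay among the top 10% of all genes by this difference. Both brown arrays lay above all 4 white arrays for 74 members, against 26.1% of all genes tested. In whole tissue, more cells of a type and more RNA per cell cannot be told apart, and the part of markers of other cells in these differences was not tested. In brown fat 6 of 6 macrophage, 7 of 7 lymphoid and 4 of 5 mesothelial markers fell, and 0 of 12 muscle markers were called.

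**Figure D1:**
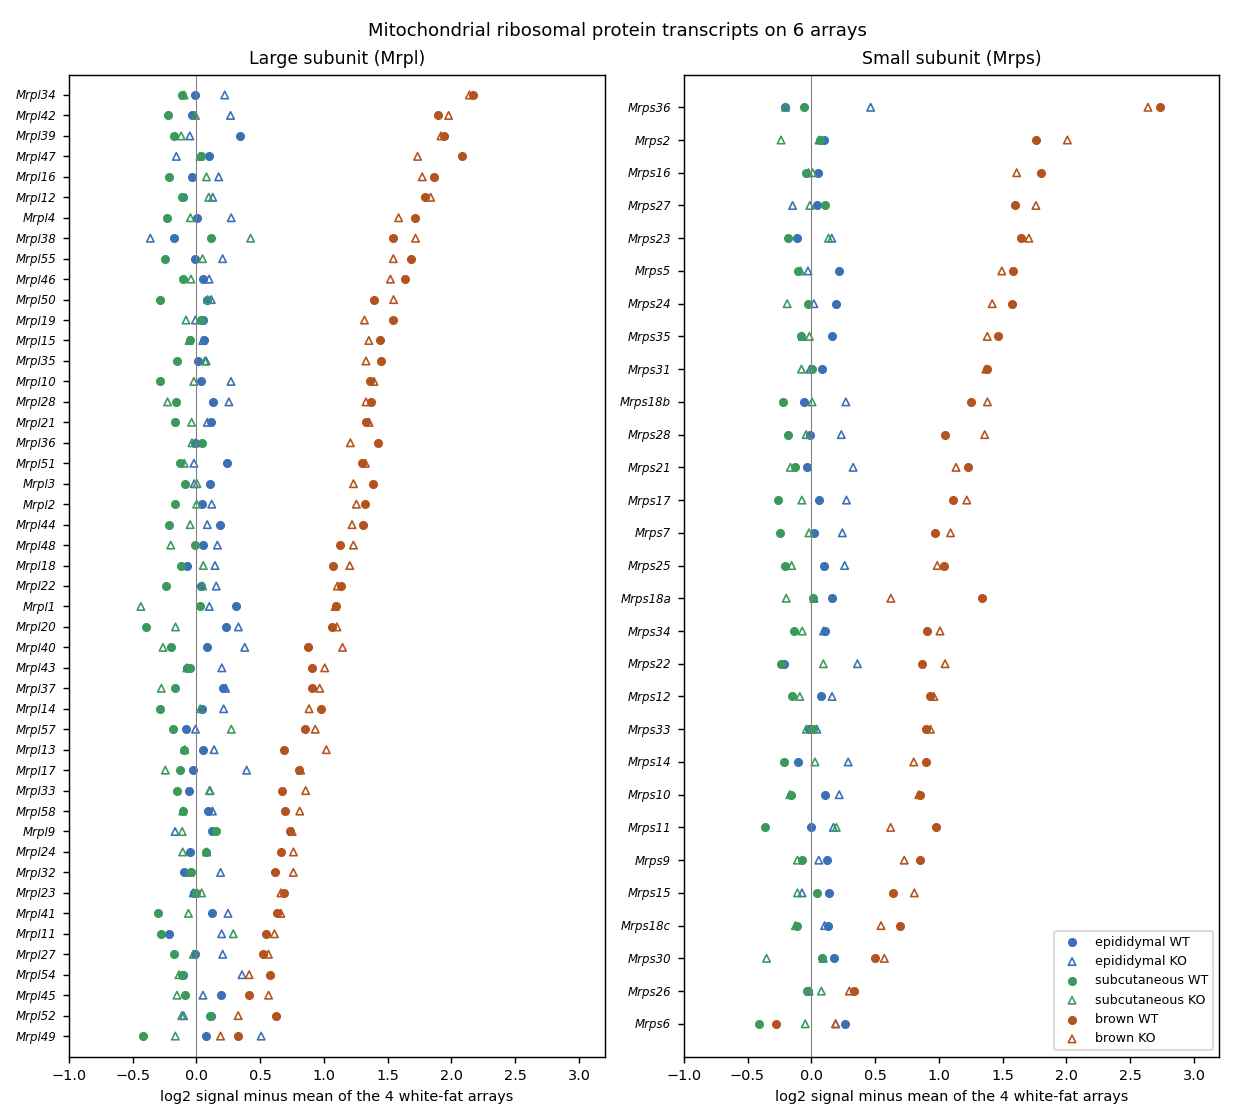
Each row is 1 mitochondrial ribosomal protein gene and each point 1 array, plotted as log2 signal minus the mean of the 4 white-fat arrays (left, 47 Mrpl genes; right, 29 Mrps genes; filled, WT; open triangles, KO). The brown arrays lie to the right of all white arrays for 74 of 76 genes, and the order runs from Mrps36 and Mrpl34 down to Mrpl49 and Mrps6.

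Large-subunit genes rose in 45 of 47 cases, with a median difference of 1.14 (2.20-fold) and a range of 0.26 to 2.15. Mrpl34, a small protein of bacterial ancestry, had the largest rise of the large subunit. Its signals were 1525 and 1794 on the epididymal arrays, 1421 and 1438 on the subcutaneous arrays, and 6899 and 6780 on the brown arrays. The white values lay within a narrow band and the brown values far above it, a 4.45-fold difference (log2 2.15 ± 0.13 SE, limma adjusted p = 0.00047).

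Mrpl12, which besides its place at the stalk of the large subunit binds the mitochondrial RNA polymerase, had signals of 3156 and 3719 on the epididymal arrays, 3140 and 3639 on the subcutaneous arrays, and 11817 and 12157 on the brown arrays. The groups did not overlap, and the difference was 3.52-fold (log2 1.82 ± 0.12 SE, limma adjusted p = 0.00055). Mrpl39, a protein found only in mitochondrial ribosomes, read 6517 and 4953 in epididymal, 4551 and 4725 in subcutaneous, and 19746 and 19395 in brown fat. This was a 3.81-fold difference, with epididymal WT the highest of the white arrays. The other members of the leading 6 were Mrpl42, Mrpl47 and Mrpl16, which rose by 1.94, 1.91 and 1.82 on the log2 scale.

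Small-subunit genes rose in 27 of 29 cases, with a median difference of 1.01 (2.02-fold) and a wider range, from -0.04 to 2.69. The highest value belonged to Mrps36, with signals of 1687 and 2682 on the epididymal arrays, 1864 and 1689 on the subcutaneous arrays, and 12909 and 12106 on the brown arrays. The brown arrays stood 6.44-fold above the white ones (log2 2.69 ± 0.21 SE, limma adjusted p = 0.00071). Mrps36 keeps its ribosomal name, but its product is now known as a subunit of the 2-oxoglutarate dehydrogenase complex of the citric acid cycle. Among the small-subunit proteins proper, Mrps2, a relative of bacterial S2, led with signals of 1149, 1117, 1125 and 908 in white fat (epididymal WT and KO, then subcutaneous WT and KO) and 3628 and 4304 on the brown arrays. No white array came near a brown one, and Mrps2 rose 3.69-fold (log2 1.88 ± 0.16 SE, limma adjusted p = 0.00082). Mrps16, Mrps27, Mrps23 and Mrps5 rose by 1.71, 1.68, 1.67 and 1.54 on the log2 scale.

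The large-subunit median exceeded the small-subunit median by 0.12 on the log2 scale, a difference that was not tested. With Mrps30 and Mrps18a counted as large-subunit proteins, where structures place them, and Mrps36 left out, the same difference stayed within the range of 0.01 to 0.21 that all alternative settings gave. Mrps30 rose by 0.54 and Mrps18a by 0.98. Genes with a bacterial counterpart rose in 44 of 45 cases with a median of 1.12. All other members, Mrps36 among them, rose in 28 of 31 cases with a median of 1.01. The call for Mrps30 was lost when either brown array, either epididymal array or the subcutaneous KO array was left out, with values of 0.37 to 0.70, and also with the floor at the 20th percentile.

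Mrps18a, Mrps18b and Mrps18c are paralogs related to bacterial S18, and all rose in brown fat. Mrps18b rose most, by 1.32 on the log2 scale, from 972 to 1366 on the white arrays to 2705 in brown WT and 2950 in brown KO. Mrps18c rose by 0.62, from 2331 to 2778 on the white arrays to 4107 in brown WT and 3711 in brown KO. Without the brown WT array, Mrps18c differed by 0.56 and was not past the threshold. The order of these log2 differences was Mrps18b, Mrps18a, Mrps18c, with SEs of 0.12 to 0.17, and the differences between the paralogs were not tested.

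A list was made of 13 genes whose human counterparts carry variants in combined oxidative phosphorylation deficiency, an inherited failure of mitochondrial translation. The list may not be complete. All 13 rose, with a median of 2.30-fold, beside 72 of all 76 members with a median of 2.15-fold. Beside Mrps2, Mrpl12, Mrps16 and Mrps23 already described, Mrpl3 rose by 1.31, Mrpl44 by 1.26, Mrps7 by 1.03 and Mrps25 by 1.01 on the log2 scale, and Mrps28 rose 2.30-fold. Mrps34 and Mrps22 both rose by 0.96, Mrps14 by 0.85 and Mrpl24 by 0.71. Mrps14 lost its call without the brown WT array (0.64) and Mrpl24 without the brown KO array (0.65). Mrps25 averaged over all its probe sets differed by 0.27 and was not called.

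Mrpl49, Mrpl54, Mrps26 and Mrps6 did not pass the threshold. Mrps6, a relative of bacterial S6, had signals of 6244 and 5921 on the epididymal arrays, 3901 and 5019 on the subcutaneous arrays, and 4279 and 5920 on the brown arrays. Its brown values lay inside the white range (log2 -0.04 ± 0.16 SE, limma adjusted p = 0.837), and the sign of this small difference turned positive without the epididymal WT array (0.080), without the brown WT array (0.12) and when arrays were centred on their medians (0.035). Its second probe set, which was also well above the floor, differed by -0.02. Mrpl49 read 1194 and 1613 in epididymal, 850 and 1012 in subcutaneous, and 1421 and 1294 in brown fat, with epididymal KO above both brown arrays. Its difference was 0.26 (limma adjusted p = 0.235). Mrps26 differed by 0.32 (limma adjusted p = 0.080) and Mrpl54 by 0.50 (limma adjusted p = 0.062), with brown arrays above every white array in both. Of the 15 alternative settings, 6 called Mrpl54 higher and 2 called Mrps26 higher.

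Several probe sets were available for 42 members, and 62 of the 80 further probe sets were above the floor on at least 3 arrays. Of those 62, 56 were higher in brown fat and 6 lower, with a median of 0.84, against 1.18 for the chosen probe sets of the same genes. The brightest probe set thus gave the larger difference on the whole. Mrpl38 was an example, where the chosen probe set differed by 1.63 and, with probe sets prone to cross-hybridisation left out, the gene differed by 0.41 and was not called. The probe set behind that lower value had signals of 73.7 to 127, close to the floor, where differences are compressed. Such probe sets carry the suffix s or x in the array design.

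Genes that build and serve the mitochondrial ribosome were also mostly higher in brown fat. Of other mitoribosomal proteins and their membrane partner, 5 of 5 measured rose, namely Ptcd3 (1.39), Oxa1l, which inserts new proteins into the inner membrane (1.27), Chchd1 (1.22), Gadd45gip1 (1.10) and Dap3, a small-subunit GTP-binding protein (0.58). Dap3 was not called without either epididymal array (0.62 and 0.55) or the brown KO array (0.43). Translation factors rose in 11 of 12 cases with a median of 1.12, led by the elongation factors Gfm1 (2.03) and Tufm (1.81) and by Lrpprc (1.81), which stabilises mitochondrial messenger RNA. The exception, the release factor Mtrf1l, differed by -0.18 (limma adjusted p = 0.370), with a sign that turned under quantile normalization (0.064) and without the brown WT array (0.053).

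Mitochondrial aminoacyl-tRNA synthetases and tRNA factors rose in 13 of 17 tested cases with a median of 0.93, led by Yars2 (1.65), Cars2 (1.48) and Fars2 (1.41). Factors that assemble the ribosome or modify its RNA rose in 19 of 23 with a median of 0.73, led by Fastkd2 (1.40), Eral1 (1.34) and the methyltransferase Mrm3 (1.30). Of 8 genes for transcription and replication of mitochondrial DNA, 5 rose and 2 fell. The transcription factor Tfb2m (1.77), the polymerase Polrmt (1.58) and the helicase Twnk (1.12) rose most. Polg2, the accessory subunit of the DNA polymerase, fell by 0.58 and Mterf1a, a terminator of transcription, by 0.55. Under quantile normalization both lost the call, with values of -0.33 for Polg2 and -0.30 for Mterf1a. Both also lost it when the epididymal WT, the epididymal KO or the brown KO array was left out (-0.48 to -0.59), and Mterf1a without the subcutaneous KO array (-0.49), without the brown WT array (-0.58) and in the fit without genotype (-0.55, limma adjusted p = 0.186).

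Subunits of the respiratory chain and ATP synthase rose in 74 of 79 cases and fell in 1, with a median of 1.55. The subunits tested are all encoded in the nucleus, and none is among those that mitochondria translate. Of the cytosolic ribosomal protein genes, 6 of 47 rose and 5 fell, with a median of 0.01. These lists are set beside each other by count and median, and no list was tested against another.

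**Figure D2:**
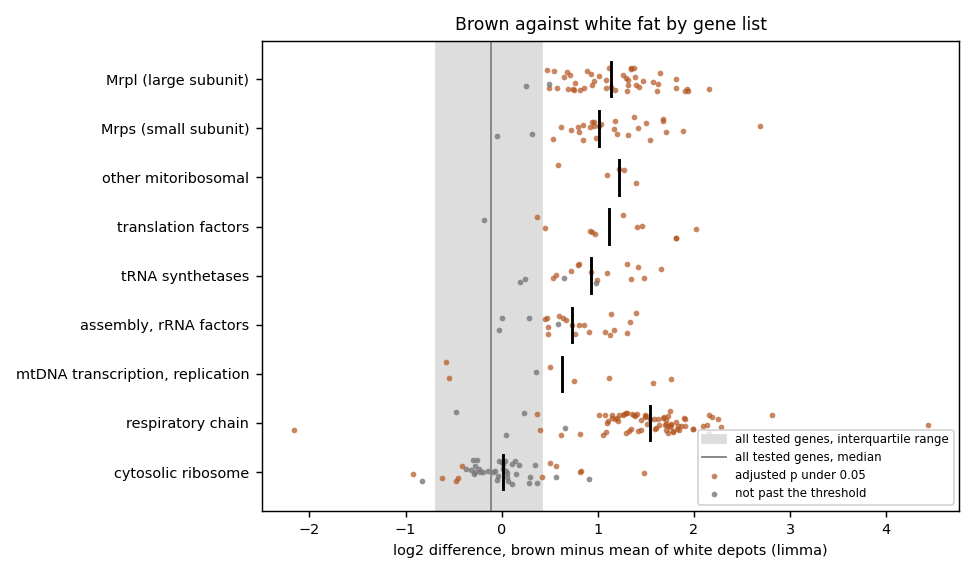
Each point is 1 gene, plotted by its log2 difference between brown fat and the mean of the white depots (limma), in rows for the subunits and the related gene lists; orange points are past an adjusted p of 0.05, black bars are list medians and the grey band is the interquartile range of all genes tested. The medians of Mrpl and Mrps genes, 1.14 and 1.01, lie beside those of the translation factors (1.12) and below that of the respiratory chain (1.55), and the cytosolic ribosome sits at 0.01.

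Of 10 regulators of mitochondrial biogenesis, 4 rose in brown fat. These were the coactivators Ppargc1a (3.39) and Ppargc1b (3.27) and the oestrogen-related receptors Esrrg (3.27) and Esrra (2.43). Ppargc1a read 467 and 273 in epididymal, 477 and 436 in subcutaneous, and 4398 and 4097 in brown fat. The factors whose motifs were searched had other values. Nrf1 differed by 0.19 (limma adjusted p = 0.232), the GABP subunits Gabpa by 0.04 (limma adjusted p = 0.846) and Gabpb1 by -0.16 (limma adjusted p = 0.518), and Yy1 fell by 0.42 (limma adjusted p = 0.039).

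The values of these 4 factors were sensitive to the settings. Nrf1 was called higher under quantile normalization (0.46), and Gabpa was called higher with the mean of all probe sets (0.77). Gabpa turned negative without the epididymal WT array (-0.059) or the subcutaneous KO array (-0.073), and Gabpb1 positive without the brown KO array (0.19) or under quantile normalization (0.082). With the mean of all probe sets, Yy1 differed by -0.16 and was not called. Yy1 also lost its call under median centring (-0.34), with the floor at the 20th percentile and when any 1 array was left out (-0.36 to -0.47). Myc and Pprc1 fell by 0.94 and 0.78, the latter not past the threshold without the brown WT array (-0.61).

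Motif matches were counted in the same 300-base windows for the members and for 10569 other tested genes. An ETS match was present for 25 of 67 members (37.3%, against 18.4% of the others), an NRF1 match for 12 (17.9%, against 10.7%) and a YY1 match for 12 (17.9%, against 4.83%). At least 1 of the 3 was present for 41 members (61.2%), against 29.7% of the other genes. Of the other motifs searched, the GC box GGGCGG was found for 34 members (50.7%, against 66.2%), the E box CACGTG for 5 (7.46%, against 11.5%), TATAAA for 5 (7.46%, against 9.53%) and the ERR motif AAGGTCA for 4 (5.97%, against 4.05%). Over all 27025 windows in the table, shares were 9.93% for ETS, 5.19% for NRF1 and 3.19% for YY1.

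Members with an ETS, NRF1 or YY1 match had no larger median rise in brown fat than members without it. Members with an ETS match had a median difference of 0.98 and those without one 1.09. For NRF1 the medians were 0.85 and 1.12, and for YY1 1.005 and 1.09. The 4 members with the ERR motif had a median of 1.25 (1.03 without it), and the 5 with TATAAA 1.496 (1.01 without it). Respiratory chain genes had an NRF1 match in 22.7% and an ETS match in 25.8% of 66 windows, and cytosolic ribosome genes an ETS match in 47.6% of 42. A match describes letters in a window and no binding was measured.

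**Figure D3:**
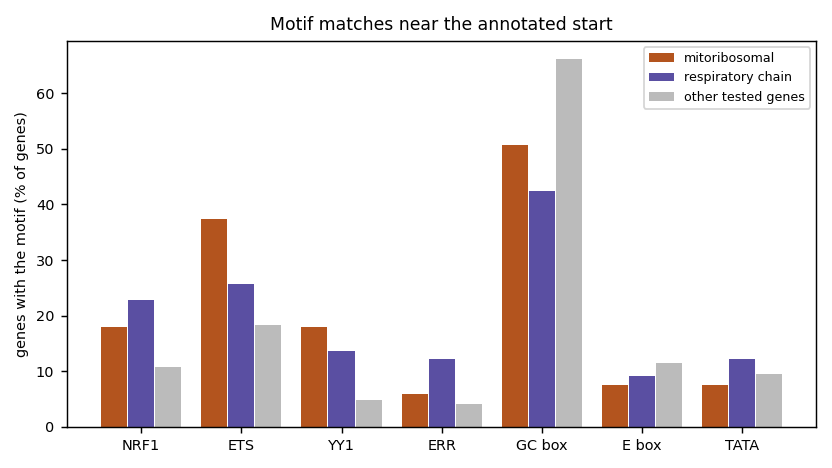
Bars give the percentage of genes whose window around the annotated start holds each motif on either strand, for 67 mitochondrial ribosomal protein genes, 66 respiratory chain genes and 10569 other tested genes. The ETS, NRF1 and YY1 bars of the mitochondrial ribosome (37.3%, 17.9% and 17.9%) are taller than those of the other genes, and its GC-box bar is shorter (50.7% against 66.2%).

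Between the white depots, 67 of 76 members had a lower signal in subcutaneous than in epididymal fat and 9 a higher one, with a median of -0.19 against 0.00 for all genes tested. Of all 13233 genes tested, 6595 were lower. The direction was shared by respiratory chain and ATP synthase genes, lower in 70 of 79 cases with a median of -0.15. Translation factors were lower in 7 of 12 cases and cytosolic ribosomal protein genes in 6 of 47. In limma, 0 members were called, and the smallest adjusted p was 0.107. Over all genes tested, 3.88% were called higher and 1.16% lower. Unadjusted p-values under 0.05 were found for 5 members in the lower and 1 in the higher direction, against 8.98% and 12.6% of all genes. The large-subunit median was -0.197 and the small-subunit median -0.191. Skeletal muscle and lymphoid markers were higher in the subcutaneous arrays as given above. Adipocyte markers were lower there in 5 of 5 cases (0 called), brown adipocyte markers in 5 of 6 (1 called) and mesothelial markers in 5 of 5 (5 called). Macrophage markers were split, with 3 higher and 3 lower. The part of all these markers in the members' difference was not tested.

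The genes with those unadjusted p-values were all of the large subunit and were singled out after their values were seen. Mrpl20 read 3209 and 3430 on the epididymal arrays and 2070 and 2437 on the subcutaneous arrays, a difference of -0.56 without overlap (limma adjusted p = 0.107). Mrpl49 differed by -0.58, Mrpl40 by -0.46, Mrpl37 by -0.44 and Mrpl28 by -0.38. Mrpl38 was the exception, at 492 and 433 in epididymal and 600 and 746 in subcutaneous fat (0.54, limma adjusted p = 0.175). When each array was centred on its median, 6 members were called lower and the median of the members moved to -0.54, while the median of all genes moved to -0.33. The share of higher genes among all those called was 76.9% as deposited, 61.9% after quantile normalization and 27.1% after centring.

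Loss of Kdm4b was examined within each depot, by fold because each depot has 1 array per genotype, and across depots by the genotype term of limma. In limma, 0 of 76 members were called in either direction, as were 0.0% of the 13233 genes tested. Unadjusted p-values under 0.05 were found for 1 member in the higher and 0 in the lower direction, against 3.79% and 4.54% of all genes. The model with an intensity trend also called 0 members. The depots stand in for replicates here, so the p-values measure how alike the depots are. In simulated data on these 13233 genes, the genotype term found 0% of 200 genes with a log2 change of 1 and 87.5% of 200 with a log2 change of 2, so differences of the size seen in the members were not detectable by this test.

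In epididymal fat 48 members had a higher signal in KO and 28 a lower one (63.2% higher, against 46.7% of all genes), with a median of 0.08 against -0.02 for all genes measured. The large-subunit median was 0.10 and the small-subunit median 0.01. Only Mrps36 was at least 1.5-fold higher, and 0 members were that much lower, against 4.37% and 6.5% of all genes. Mrps36 read 1687 in WT and 2682 in KO (0.67), while in subcutaneous and brown fat it was lower in KO by 0.14 and 0.09. Mrps22, a mitochondria-specific protein of the small subunit, followed with 1236 in WT and 1844 in KO (0.58), then Mrpl54 (0.47), Mrpl49 (0.43) and Mrpl17 (0.42). On the lower side were Mrpl39, from 6517 to 4953 (-0.40), and Mrpl9, Mrpl51, Mrpl47 and Mrps5 (-0.29 to -0.24). Further probe sets above the floor on both epididymal arrays were lower in KO for Mrpl39 (-0.12) and Mrpl47 (-0.07). Those of the others went both ways, with -0.10 and 0.38 for Mrpl9, 0.12 and -0.08 for Mrpl51, and -0.15, 0.45 and 0.70 for Mrps5. The second probe set of Mrpl49 was higher too (0.55). Muscle markers summed to 6222 in WT and 2679 in KO epididymal fat and seminal vesicle markers to 4639 and 3346, and their part in these values was not tested.

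In subcutaneous fat 45 members were higher in KO and 31 lower (59.2% higher, against 54.7% of all genes), with a median of 0.05 against 0.04 for all genes. After centring of the arrays both turned negative, to -0.10 and -0.12. The medians as deposited were 0.06 for the large and 0.05 for the small subunit. No member reached 1.5-fold in either direction, against 8.71% of all genes higher and 3.74% lower. Mrpl11, a relative of bacterial L11 at the base of the stalk, read 1795 in WT and 2653 in KO (0.56), but its next brightest probe set read 1913 and 1434 (-0.42). The probe sets of this gene thus went opposite ways. Mrps11 read 683 and 1006 (0.56), followed by Mrpl57 (0.46), Mrpl50 (0.37) and Mrps6 (0.36). Mrpl1 had the lowest KO value relative to WT, 375 against 516 (-0.46), followed by Mrps30 (-0.43), Mrps2 (-0.31), Mrpl9 (-0.27) and Mrpl52 (-0.22). Further probe sets above the floor on both subcutaneous arrays were higher in KO for Mrpl57 (0.39), Mrpl50 (0.22) and Mrps6 (0.45). For the genes with low values they gave -0.15 (Mrpl1), 0.27 (Mrps2), -0.07 and 0.49 (Mrpl9), and 0.10, 0.15 and -0.02 (Mrpl52). Between the subcutaneous arrays, summed seminal vesicle markers were 8618 in WT and 1843 in KO, macrophage markers 25096 and 17992, and muscle markers 64258 and 77322. Their part in these values was not tested.

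In brown fat 39 members were higher in KO and 37 lower (51.3% higher, against 46.4% of all genes), with a median of 0.01 against -0.03 for all genes. After quantile normalization the members' median was -0.00051 and that of all genes 0.00. The large-subunit median was 0.02 and the small-subunit median -0.01. Only Mrps18a passed 1.5-fold, with a signal of 6763 in WT and 4129 in KO (-0.71). In brown fat 4.82% of all genes were at least 1.5-fold higher and 8.85% lower. After centring, 0 members were that much lower and 1 was higher. Mrps18a has 1 probe set on the array, so no second reading was possible. The further low values were Mrps11 (-0.35), Mrpl47, from 4768 to 3748 (-0.35), Mrpl52 (-0.29) and Mrpl19 (-0.23). Mrps6 was highest in KO relative to WT, 4279 against 5920 (0.47), and its second probe set read 2553 and 3981 (0.64). Mrpl13 (0.33), Mrps28 (0.31), Mrpl40 (0.27) and Mrps2 (0.25) followed. Further probe sets above the floor on both brown arrays gave 0.28 for Mrps2 but -0.24 and 0.15 for Mrpl13. For the genes with low values they gave 0.39 and 0.46 (Mrpl47), 0.09 and -0.32 (Mrpl52), and 0.05 (Mrpl19). Muscle markers differed between these brown arrays as given above, and their part in these values was not tested.

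Lower folds were more common. At 1.2-fold, 15 members were higher and 2 lower in epididymal KO (17.6% and 22.5% of all genes), 13 and 4 in subcutaneous KO (23.9% and 16.4%), and 4 and 4 in brown KO (17.8% and 24.3%). At 2-fold no member was counted in any depot, where all genes gave 0.87% and 1.41% in epididymal, 2.2% and 0.722% in subcutaneous, and 1.1% and 2.43% in brown fat.

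The KO differences of the members were spread less widely than those of genes in general. The SD over genes of the KO minus WT difference was 0.22 for members in epididymal fat against 0.38 for all genes measured, 0.21 against 0.40 in subcutaneous fat and 0.17 against 0.44 in brown fat. The members all lay well above the floor, whereas the set of all genes reaches down to it. Taken from all genes with several probe sets, the SD between readings of 1 gene was 0.31 in epididymal and 0.32 in both other depots. It is an error without the spread between mice. Among the members alone this SD was smaller, at 0.26, 0.30 and 0.26 (epididymal, subcutaneous, brown, from 33, 33 and 36 members). The KO difference was larger than the SD from all genes for 10, 8 and 5 of the 76 members, in the same order, against 33.7%, 32.1% and 33.6% of all genes.

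**Figure D4:**
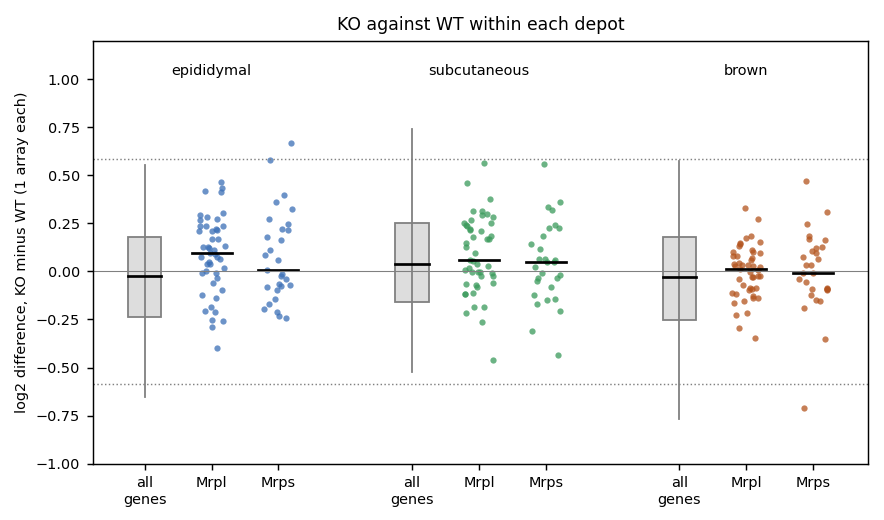
Log2 differences between the KO and the WT array of each depot are shown for all genes measured (box, interquartile range with median; whiskers, 5th to 95th percentile) and for each Mrpl and Mrps gene (points, with the median as a bar); dotted lines mark 1.5-fold. All member medians lie between -0.01 and 0.10, and only Mrps36 in epididymal fat and Mrps18a in brown fat are past the dotted lines.

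Across the depots, 19 members were higher in KO in all 3 and 10 lower in all 3, against 16.2% and 17.2% of the 12157 genes measured in all of them. These were 25% and 13.2% of the members. Mrps22 was the most raised on average, with 1215 and 1532 on the subcutaneous arrays and 2615 and 2969 on the brown arrays beside the epididymal values above. Its mean difference was 0.37 ± 0.20 (SD over 3 depots), with the smallest adjusted p of the members (limma, 0.591). Mrpl33, Mrps28 and Mrpl18 were also higher in each depot, by 0.20 ± 0.04, 0.23 ± 0.09 and 0.18 ± 0.04.

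Mrpl52 was lower in KO in each depot, at 3030 and 2614 in epididymal, 3011 and 2588 in subcutaneous, and 4313 and 3518 in brown fat (mean -0.24 ± 0.05, SD over 3 depots). Of its further bright probe sets, one was lower in epididymal KO and higher in subcutaneous and brown KO (-0.08, 0.10 and 0.09), and the other was higher in subcutaneous KO alone (-0.02, 0.15 and -0.32). Mrps24, Mrps18a and Mrpl19 were lower in each depot too, by means of -0.16 ± 0.01, -0.35 ± 0.31 and -0.13 ± 0.08. The next brightest probe set of Mrpl19 was higher in KO in each depot, by 0.39, 0.12 and 0.05, and that of Mrps24 was higher in epididymal KO (0.12) and lower in subcutaneous and brown KO (-0.05 and -0.32). The share of members with 1 direction in all depots is close to that of all genes on the lower side and above it on the higher side, and this excess was not tested.

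The brown-white difference was present in both genotypes when each was taken alone, from 1 brown and 2 white arrays. The members' median was 1.155 in WT and 1.07 in KO. The brown KO array carried few muscle transcripts, and their part in these values was not tested. The brown-white difference was larger in WT for 51 members and in KO for 25, with a median change of -0.10 in KO against -0.02 for all genes. Over the 76 members the differences in WT and KO had a Pearson r of 0.90, a description of genes that share the same arrays. Mrps11 had the largest change, from 1.16 in WT to 0.44 in KO, followed by Mrps18a, from 1.25 to 0.71. Mrps2 had the largest change the other way, from 1.67 to 2.10.

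**Figure D5:**
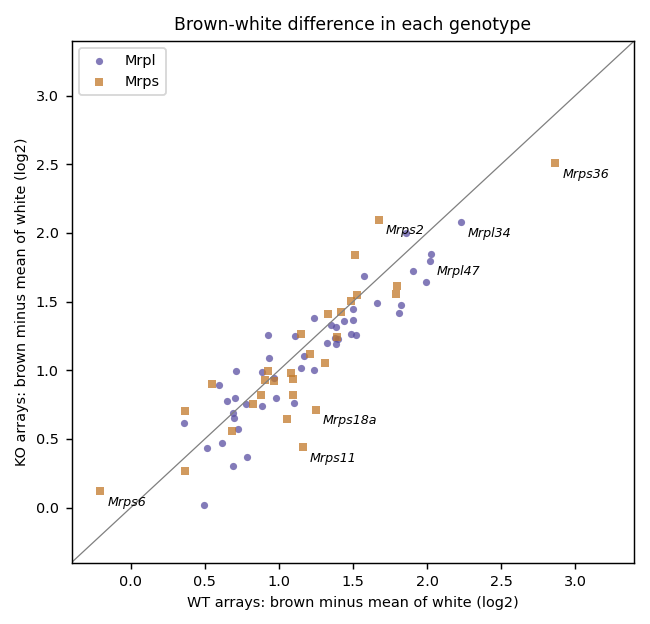
Each point is 1 member, with the log2 difference between brown and the mean of white fat on the WT arrays (horizontal) and on the KO arrays (vertical); circles are Mrpl, squares Mrps, and the line marks equal values. The points follow the line from Mrps6 to Mrps36, with Mrps11 (1.16 in WT, 0.44 in KO) and Mrps18a (1.25 and 0.71) below it and Mrps2 (1.67 and 2.10) above it.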

How the data were processed

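The 6 samples, 1 array each, were measured as Affymetrix probe set intensities. The deposited intensity values were made by the authors with MAS5 in Affymetrix Expression Console, per the submitters' processing notes. The 2%-trimmed mean was computed for the epididymal WT array only and was 500.0. Scaling of each array to a common mean would hide any difference in total RNA. No version is given in the sources, nor the genome build of the array design. Gene names came from the 34958 probe sets with 1 symbol in the platform annotation, of which 34754 were found in a RefSeq table of GRCm38.p6. A signal floor at the 40th percentile (63.2) was applied before log2.

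Each gene took its brightest probe set. A single limma fit (version 3.58.1, R 4.3.3) with depot and genotype covered the 13233 genes that exceeded the floor on 3 or more arrays. The p-values measure the spread among these arrays, with depots or genotypes standing in for replicates. Members were counted at 1.5-fold within a depot. The rule for names took the largest differences per subunit and depot and the members of short lists. Members, lists and motifs were chosen with earlier results of these data known. Between 12639 and 13594 genes lay above the floor on an array, and precision is limited by the number of arrays. Tested on simulated data, the fit of these 13233 genes found 91.5% of 200 genes with a log2 change of 2 between brown and white fat, and 0% of 200 with a change of 1. Those data held few changed genes, which makes the adjustment stricter than in the real fit. Figures and counts used Python 3.11.15, numpy 2.4.6, pandas 2.3.3 and matplotlib 3.10.9.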

Additional observations from a re-analysis of the deposited data

How the results depend on the processing

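The brown-white count stayed between 61 and 74 members over the alternatives, with 0 lower; 61 is the count without the brown WT array and 64 without the brown KO array. Of the 72 called members, 56 kept the call under all 15 alternatives and 16 lost it under at least 1. The one member that changed sign was Mrps6, not called, at 0.035 under median centring, 0.080 without the epididymal WT array and 0.12 without the brown WT array (range -0.21 to 0.12 when 1 array was left out). The named genes outside the list that changed sign were also uncalled, namely Mtrf1l (0.064 under quantile normalization, -0.42 to 0.053 leaving out 1 array), Gabpa (-0.073 to 0.15 leaving out 1 array) and Gabpb1 (0.082 under quantile normalization, -0.52 to 0.19 leaving out 1 array). The members' median between brown and white fat ranged from 0.95 to 1.18. The median of all genes was -0.11, -0.01 and -0.04 as deposited, after quantile normalization and after median centring, and the share of higher genes among those called was 41.0%, 48.2% and 46.1%. For subcutaneous against epididymal fat these shares were 76.9%, 61.9% and 27.1%. There, 6 members were called lower with median centring (median -0.54), 1 with the floor at the 60th percentile and 1 with an intensity trend. KO against WT called 0 members under every alternative run. Members at least 1.5-fold higher in epididymal KO numbered 2 after quantile normalization, 3 after centring and 2 without cross-hybridising probe sets. At 1.2-fold, 15 were higher and 2 lower in epididymal, 13 and 4 in subcutaneous, and 4 and 4 in brown fat, and at 2-fold there were 0 higher in epididymal and 0 lower in brown fat. In subcutaneous fat 2 were 1.5-fold higher after quantile normalization and 1 lower after centring. In brown fat 1 was higher after centring, 1 was higher without cross-hybridising probe sets, and 0 were lower after centring. Centring moved the median KO difference of all genes to 0.11 (epididymal), -0.12 (subcutaneous) and 0.11 (brown), and that of the members to 0.21, -0.10 and 0.15. No cause of these shifts was tested. No paired analysis was possible because the labels carry no replicate numbers and each depot and genotype has 1 array.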

Other observations

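Some mitochondrial ribosomal protein genes start close to a neighbour that is read in the opposite direction. With a limit of 500 bases between starts, chosen after the data were seen, 22 of the 67 members with a window had such a partner. The share of all genes with such a partner was not counted, so this number cannot be called particular to the members. Of the 16 tested partners that are not mitochondrial ribosomal protein genes themselves, 9 rose in brown fat and 0 fell, with a median difference of 0.62 on the log2 scale, against 21.6% of all genes called higher. Mrpl47 and its partner Ndufb5, a subunit of respiratory complex I, differed by the same amount, 1.91 each. Mrpl43 stood beside the mitochondrial helicase gene Twnk (0.96 and 1.12), and Mrps27 beside Ptcd2, an RNA-processing protein of mitochondria (1.68 and 1.34). Mrpl46 and Mrps11 share a start region with each other and differed by 1.58 and 0.80; Mrps11 lost its call without the brown WT array (0.44), without either epididymal array (0.78 and 0.82), with the mean of all probe sets (0.34) and with the floor at the 20th percentile. The partner Tmem63b exceeded its member Mrpl14 (1.14 and 0.93). Mrpl49, which was not called, stands beside Fau, the gene of a cytosolic ribosomal protein (0.26 and -0.22), and Mrps7 beside Gga3, a vesicle-sorting protein (1.03 and 0.13).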
